A study of Mus musculus with 3 samples.

Results

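The genes described here encode the protein factors that start and extend translation, with their binding proteins and modifying enzymes. They were taken by symbol, as the protein-coding genes whose names begin with Eif1 to Eif6 or with Eef1 or Eef2. The eIF2 kinases Eif2ak1, Eif2ak2, Eif2ak3 and Eif2ak4 and the genes Eif2s3y and Eif1ax were left out by the rule. It gave 62 genes of the 22028 protein-coding and 55536 annotated genes in the tables. No measured value entered the choice.

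The study sequenced total RNA, depleted of ribosomal RNA, from the cytosolic fraction of primary macrophages grown from C57BL/6J mouse bone marrow. All 3 libraries were of 1 group: cells stimulated for 60 min with 100 ng/ml lipid A, the membrane anchor of lipopolysaccharide and the ligand of Toll-like receptor 4, with 1 µg of RNA in each library. The labels number them as biological replicates 1, 2 and 3 but give 1 donor entry, which names the strain, so p-values below measure only how far these samples spread, and that spread may be technical. Unstimulated cells and nuclear RNA were not analysed here, and nothing below is a response to lipid A or a difference between fractions.

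Translation starts when eIF2 brings the initiator tRNA to the small ribosomal subunit, eIF3 and the scanning factors hold it there, and eIF4F recruits the capped messenger RNA. eIF2B recharges eIF2 with GTP, and eIF4E-binding proteins keep the cap-binding subunit eIF4E from joining eIF4F. During elongation eEF1A delivers aminoacyl-tRNAs, eEF1B exchanges its GDP for GTP, and eEF2 moves the ribosome along by 1 codon. In macrophages answering a bacterial signal, these steps are known points at which cytokine production is controlled.

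The libraries held 64110863, 72057046 and 69345880 expected counts in replicates 1, 2 and 3, and a count of 0 in them allows up to 3 counts, or 0.0469, 0.0417 and 0.0433 CPM. Such floors cover counting error only. All 8 macrophage markers were present (means of 21.7 to 5032 TPM, an abundance scaled by transcript length and by library), while 19 of the 20 markers of other cell types were under 1 TPM. The exception was the neutrophil gene Ngp at 1.92 TPM. The summed level of those 20 markers was 3.79, 2.38 and 3.16 TPM, and the erythroid genes Hba-a1 and Hbb-bs were listed at 0 in every library. Protein-coding genes made up 33.2% of all TPM in replicate 1 but 22.0 and 24.0% in replicates 2 and 3, and every one of the 59 factor genes of at least 1 TPM had its highest TPM in replicate 1. Levels were therefore also set against each library's median gene, which is the median over protein-coding genes with a mean of at least 1 TPM and stood at 9.08, 5.76 and 6.86 TPM. Relative to it, 18, 29 and 12 of the 59 were highest in replicates 1, 2 and 3.

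The factor genes together supplied 1.35, 1.47 and 1.33% of the protein-coding counts and 1.42, 1.51 and 1.42% of the protein-coding TPM. A single gene, Eef1a1, held 44.6, 47.9 and 44.1% of their TPM, and by role the eEF1A group came to 45.4% of the mean total, eIF4F and its relatives to 14.8%, eIF3 to 10.6%, the scanning factors to 8.89% and eEF2 with its kinase to 7.43%. The elongation factor methyltransferases made up 0.386% and the eIF2B subunits 0.661%.

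**Figure D1:**
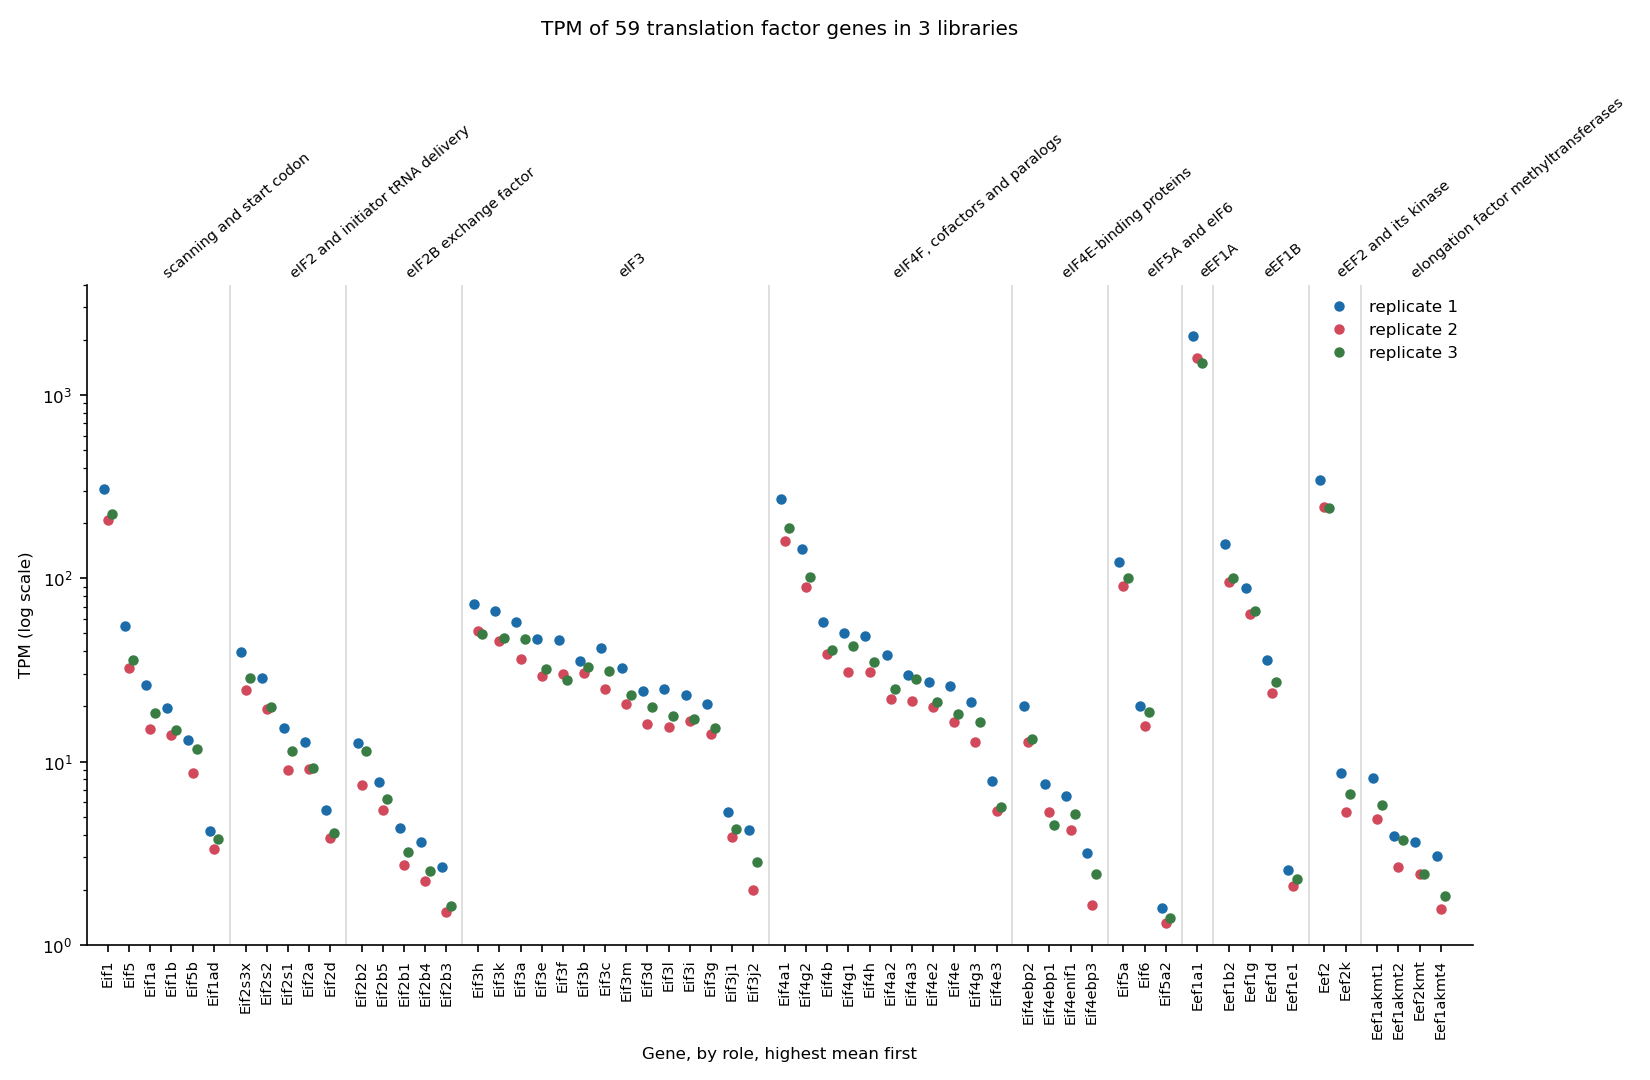
TPM (log axis) of the 59 genes with a mean of at least 1 TPM, grouped by role and ordered by mean, with 1 point per library. Eef1a1 lies between 1497 and 2098 TPM, above every other gene, and Eif5a2, between 1.31 and 1.60 TPM, has the lowest mean.

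Levels were tested against the median gene with limma, asking whether a gene lay more than 1 log2 unit (2-fold) above or below it, with Benjamini-Hochberg adjustment over all 9123 protein-coding genes tested and a threshold of 0.05. Of the 59 factor genes tested, 35 were above that band, where 26.3% of all genes tested were, and 8 were below it, where 24.5% were. The other 16 were not called. These levels sum all annotated transcripts of a gene, and levels of coding transcripts alone were not tested. The median factor gene stood 1.40 log2 units above the median gene, and 1.41, 1.42 and 1.40 in replicates 1, 2 and 3, against 0.00 for all genes tested. The remaining 3 genes failed the 1 TPM filter. They were the tissue-restricted eEF1A paralog Eef1a2 (2, 4 and 4 expected counts), the methyltransferase Eef1akmt3 (3, 1 and 0) and the germline eIF4E paralog Eif4e1b, at 0 in every library. The number below the band depended on the reference: it was 1 when the median was taken over all genes with counts in every library, which raised all levels by 0.905.

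The second set of deposited tables, made by another quantifier, gave 28 factor genes above the band and 7 below it. At the median over 7705 genes tested in both sets, levels against the median gene were 0.386 lower in the second. The reference there was the median over genes of at least 1 TPM in that set (4.21, 3.83 and 4.63 TPM), so the reference genes changed too. The part of that change in the shift was not tested. Not called there were Eif1b, Eif3d, Eif3g, Eif3i, Eif3l, Eif4g3 and Eif6, all within 0.5 log2 units of the band in the first tables, and Eif3j2. Called below it there and not in the first tables were Eif1ad, Eif2b1, Eif3j1 and Eef1akmt2. Eif2b3, Eif4ebp3, Eif5a2 and Eef1akmt4 failed the filter of 1 TPM in that set. With a pseudocount of 1, Eif1b, Eif3g, Eif4g3, Eif2b4, Eef2kmt and Eif3j2 were no longer called.

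**Figure D2:**
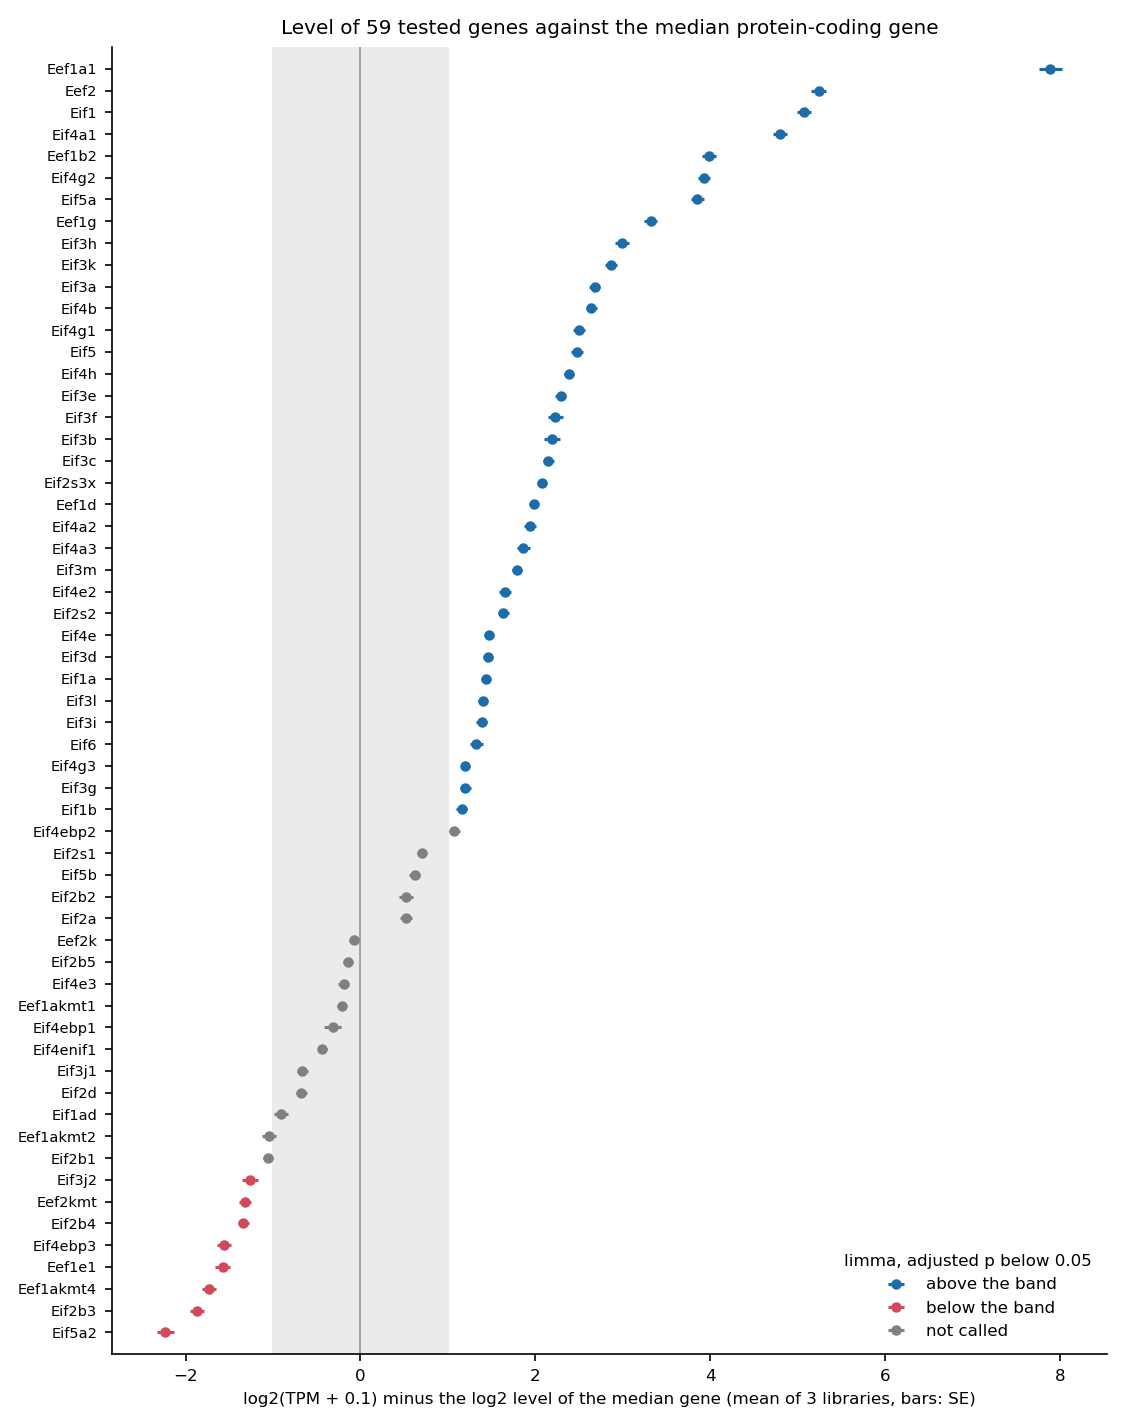
Mean difference over 3 libraries between each gene's log2(TPM + 0.1) and the library's median protein-coding gene, with limma's moderated SE. The grey band covers 1 log2 unit to each side, and 35 genes lie above it (blue), 8 below it (red) and 16 were not called (grey).

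Most scanning factors were abundant. Eif1, which keeps the ribosome from stopping at wrong start codons, was listed at 306, 209 and 224 TPM, and Eif5, the GTPase-activating protein of eIF2, at 55.2, 32.4 and 35.9 TPM. Replicate 1 was the highest for both, and the ranges of the genes did not overlap. Eif1 stood 5.07 ± 0.08 (moderated SE, n = 3) log2 units above the median gene and Eif5 2.48 ± 0.07, both called by limma. This SE of limma draws each gene's variance toward a trend over all genes tested, so it is not the spread of the 3 libraries alone. Eif1a, a partner of eIF1 in scanning, was also above the band (1.44). Eif1b, the paralog of Eif1, was at 19.7, 13.9 and 14.8 TPM and passed narrowly (1.16, limma adjusted p = 0.0413); without any 1 of the libraries it no longer passed. Eif5b, which joins the ribosomal subunits, at 0.62, and the eIF1A-domain gene Eif1ad, at -0.91, were not called. Within a library Eif1 exceeded Eif1b by 3.92 ± 0.03 (SD, n = 3) on the log2 scale, and by 3.16 ± 0.08 when only transcripts annotated as protein coding were summed.

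The subunits of eIF2 were unequal. Eif2s3x, the GTP-binding gamma subunit, was at 39.5, 24.7 and 28.4 TPM, the beta subunit Eif2s2 at 28.7, 19.3 and 19.9 TPM, and the alpha subunit Eif2s1, which stress kinases phosphorylate, at 15.3, 8.96 and 11.4 TPM. The order gamma, beta, alpha held in each library, with the gamma message 2.58, 2.76 and 2.50 times the alpha message. Both Eif2s3x (2.08) and Eif2s2 (1.63) were above the band, while Eif2s1 (0.70 ± 0.06) was not called. Eif2a and Eif2d, which can deliver initiator tRNA without eIF2, stood at 0.52 and -0.68 and were not called. In the second tables the gap between Eif2s1 and Eif2s3x was smaller, -0.94 against -1.37.

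No subunit of eIF2B, the exchange factor of eIF2, was above the band. Eif2b2 was at 12.7, 7.46 and 11.4 TPM and Eif2b5, the catalytic subunit, at 7.73, 5.45 and 6.28 TPM, and neither was called. Below the band were Eif2b4 (3.65, 2.24 and 2.53 TPM; -1.34 ± 0.06, limma adjusted p = 0.0017) and Eif2b3 (2.66, 1.51 and 1.63 TPM; -1.87 ± 0.08, 5.62e-05). The highest and lowest of the 5 subunits differed by 4.78, 4.94 and 6.97 times in replicates 1, 2 and 3, with Eif2b2 highest and Eif2b3 lowest. That order rested on transcripts of Eif2b2 that are not annotated as protein coding. With coding transcripts alone Eif2b2 was at 7.0, 4.72 and 5.19 TPM, Eif2b5 was the highest in every library, and the ratio to Eif2b3 was 3.04, 3.71 and 4.05. Eif2b1, the regulatory alpha subunit, was at 4.32, 2.73 and 3.23 TPM (-1.06, not called). The substrate subunit Eif2s1 exceeded it by 1.76 ± 0.07 (SD, n = 3) on the log2 scale. Eif2b4 overlaps the more abundant gene Snx17 on the other strand (16.5, 10.7 and 12.7 TPM). The sources used here do not say whether reads were counted by strand, so reads of the overlap cannot be assigned with certainty. The same holds for Eif1ad (with Banf1), Eif2a (Serp1), Eif2d (Rassf5), Eif3j1 (Spg11) and Eif4enif1 (Drg1), which also overlap more abundant genes on the other strand.

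The 12 subunit genes of eIF3 other than the loosely held Eif3j were all above the band, though Eif3g no longer passed without replicate 1. Eif3h was highest in each library at 72.3, 51.8 and 49.8 TPM and Eif3g lowest at 20.7, 14.2 and 15.2 TPM, a ratio of 3.50, 3.65 and 3.27. Ordered by mean, the series ran Eif3h, Eif3k, Eif3a, Eif3e, Eif3f, Eif3b, Eif3c, Eif3m, Eif3d, Eif3l, Eif3i, Eif3g. Neighbours from Eif3e to Eif3c, and from Eif3d to Eif3i, did not differ beyond the SD of their within-library differences. The steps that did were Eif3h over Eif3k (0.13), Eif3k over Eif3a (0.18), Eif3a over Eif3e (0.39), Eif3c over Eif3m (0.36), Eif3m over Eif3d (0.33) and Eif3i over Eif3g (0.19), all on the log2 scale. Eif3k, a peripheral subunit, was at 66.1, 45.5 and 47.5 TPM, and Eif3a, the largest scaffold subunit, at 57.9, 36.1 and 46.8 TPM.

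Both genes for eIF3j were lower. Eif3j1 was at 5.29, 3.90 and 4.27 TPM and not called, and Eif3j2 at 4.25, 2.00 and 2.85 TPM and below the band (-1.27 ± 0.09, limma adjusted p = 0.024), a call that was lost without replicate 2 or without replicate 3. The whole 2379-base transcript of Eif3j2 matches a stretch of the 5413-base transcript of Eif3j1 at 99.4% identity, so the division of reads between them is uncertain. The second tables turned it round: there Eif3j1 was lower than Eif3j2 by a difference of -1.10, against 0.60 ± 0.31 (SD, n = 3) in the first tables.

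In eIF4F the helicase message was the most abundant. Eif4a1 was at 269, 159 and 187 TPM, its paralog Eif4a2 at 38.0, 22.0 and 24.96 TPM, and Eif4a3, the helicase of the exon junction complex, at 29.5, 21.5 and 28.2 TPM. Within each library Eif4a1 was 2.86 ± 0.04 above Eif4a2 and 2.93 ± 0.23 above Eif4a3 (log2, SD, n = 3), and its lowest library lay above the highest of either. Summed over coding transcripts alone, the differences were 4.75 ± 0.37 and 3.80 ± 0.15. The scaffold Eif4g1 was at 50.4, 30.9 and 42.6 TPM and its relative Eif4g2 (DAP5), which lacks the eIF4E-binding region, at 144, 89.5 and 102 TPM. Eif4g2 was the higher in every library, by a difference of 1.44 ± 0.15, and Eif4g3 was 1.29 ± 0.07 lower than Eif4g1. The sign of each of these differences was the same in the second tables.

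The cap-binding gene Eif4e was at 25.9, 16.4 and 18.3 TPM and Eif4e2 (4EHP), which binds caps without recruiting the scaffold, at 27.3, 19.9 and 21.2 TPM. Their difference was small, -0.19 ± 0.10, and the second tables gave the other sign (0.09). Eif4e3 was 1.66 ± 0.06 below Eif4e and was not called against the median gene. Of the TPM of Eif4e, 36.9% lay in Eif4e-205 (729 bases) and 29.4% in Eif4e-202 (856 bases), each with 11.5% of its expected counts. The level of Eif4e and its differences from other genes therefore rest in part on short transcripts. The helicase cofactors Eif4b and Eif4h were at 57.7, 38.6 and 40.6 TPM and at 48.5, 31.0 and 35.03 TPM, a difference of 0.26 ± 0.05. All members of this group with at least 1 TPM except Eif4e3 were above the band, 10 of 11. Eif4g3 (21.1, 12.9 and 16.4 TPM) was the nearest to it at 1.20 and no longer passed without replicate 1 or without replicate 3. The calls of Eif4a2 and Eif4a3 rest in part on transcripts not annotated as coding. With coding transcripts alone Eif4a2 was at 12.6, 5.15 and 5.4 TPM and Eif4a3 at 16.5, 11.1 and 14.2 TPM. The median gene, over all transcripts, stood at 9.08, 5.76 and 6.86 TPM.

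None of the eIF4E-binding proteins was above the band. Eif4ebp2 was at 20.0, 12.8 and 13.3 TPM (1.07 ± 0.06, not called) and Eif4ebp1 at 7.58, 5.32 and 4.53 TPM (-0.32 ± 0.10, not called). Eif4ebp1 was lower than Eif4ebp2 by 1.39 ± 0.14 and lower than its target Eif4e by 1.78 ± 0.19, where the limit from short Eif4e transcripts applies. It also had the widest range over libraries of the 59 genes relative to the median gene, 0.48 log2 units, where the median over these genes was 0.19. Eif4enif1, which carries eIF4E into the nucleus and to processing bodies, was not called (-0.44). Eif4ebp3 was at 3.18, 1.65 and 2.44 TPM and below the band (-1.56 ± 0.08, limma adjusted p = 0.000535), from 131 to 165 expected counts. It lies within a read-through gene annotated on the same strand, AC115631.1, at 6.28, 3.97 and 4.55 TPM, so how its reads were divided is uncertain.

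Eif5a, which helps ribosomes over difficult peptide bonds and carries the modified residue hypusine, was at 123, 90.9 and 99.7 TPM, 3.85 ± 0.07 above the median gene. Its paralog Eif5a2 was the lowest of the tested genes at 1.60, 1.31 and 1.41 TPM (-2.23 ± 0.10, limma adjusted p = 2.5e-05). The pair differed by 6.08 ± 0.09 on the log2 scale, or 67.7-fold. Eif6, which keeps the large ribosomal subunit free, was at 20.1, 15.5 and 18.5 TPM and above the band (1.33).

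Elongation factors gave the highest levels. Eef1a1 was at 2098, 1586 and 1497 TPM and Eef2 at 343, 244 and 242 TPM, with replicate 1 the highest for both and no overlap between the genes. Eef1a1 stood 7.89 ± 0.13 and Eef2 5.24 ± 0.09 above the median gene (moderated SE, n = 3, both called by limma). Within a library Eef1a1 was 2.65 ± 0.05 (SD, n = 3) above Eef2. Eef2k, the kinase that inhibits eEF2, was at 8.66, 5.33 and 6.66 TPM, close to the median gene (-0.07 ± 0.05). Eef1a2 was at 0.01, 0.01 and 0.02 TPM. Its difference from Eef1a1 rests on the pseudocount and is not given as a fold.

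Of eEF1B, the catalytic alpha subunit Eef1b2 was at 155, 96.0 and 101 TPM, the scaffold gamma subunit Eef1g at 87.9, 63.7 and 66.3 TPM, and the catalytic delta subunit Eef1d at 35.7, 23.6 and 27.2 TPM. All of them were above the band. Eef1b2 exceeded Eef1g by 0.67 ± 0.13 and Eef1d by 2.01 ± 0.11, in every library. Over coding transcripts alone Eef1b2 (88.2, 51.4 and 51.3 TPM) was above Eef1g (75.9, 53.0 and 56.3 TPM) only in replicate 1, and the differences were 0.01 ± 0.18 and 1.12 ± 0.21. Eef1e1, an eEF1B-like protein of the multi-tRNA-synthetase complex, was at 2.57, 2.10 and 2.30 TPM and below it (-1.58 ± 0.09, limma adjusted p = 0.000682).

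Of the 4 methyltransferases tested, which act on eEF1A and eEF2, 2 were below the band and none above it. Eef1akmt1 (8.13, 4.87 and 5.79 TPM) and Eef1akmt2 (3.92, 2.65 and 3.72 TPM) were not called, and the eEF2 methyltransferase Eef2kmt (3.63, 2.44 and 2.43 TPM; -1.32 ± 0.07, limma adjusted p = 0.00463) and Eef1akmt4 (3.05, 1.58 and 1.84 TPM; -1.73 ± 0.08, 0.000167) were below the band. Both of the latter overlap genes on the other strand, Alg1 and Alg3, where the same uncertainty over strand applies.

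In all, 20 pairs of paralogs, subunits or antagonists were compared within libraries. Every pair kept 1 sign in 3 of 3 libraries, and 19 did so with coding transcripts alone. The exact 2-sided sign-flip permutation test cannot go below p = 0.25 with 3 libraries, and each pair had p = 0.25, also after Benjamini-Hochberg adjustment over the 20 pairs, so none could pass 0.05 in this test. The smallest difference relative to its SD was that between Eif4e and Eif4e2.

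**Figure D3:**
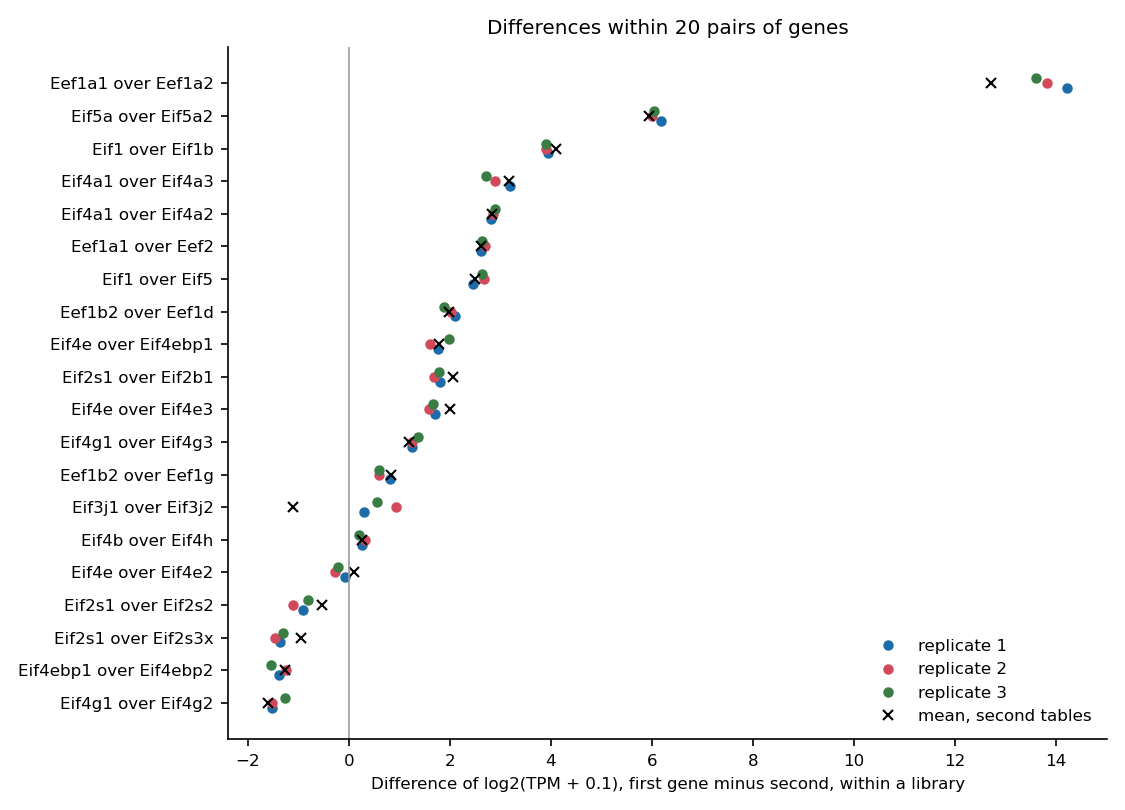
Difference of log2(TPM + 0.1) within each library for 20 pairs of genes, first gene minus second, with 1 coloured point per library and a cross for the mean in the second tables. Every pair has its 3 points on 1 side of 0, and the crosses for Eif3j1 over Eif3j2 (-1.10) and Eif4e over Eif4e2 (0.09) lie on the other side.

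Genes that act on these factors were described beside them, as a list of 35 chosen by function, of which 34 were matched by symbol. Of the 33 with at least 1 TPM, 10 (30.3%) were above the band, 4 (12.1%) below it and 19 not called, beside 26.3 and 24.5% of all genes tested. Ppp1r15a (GADD34), which directs the phosphatase that restores eIF2, was at 632, 559 and 271 TPM, well above every eIF2 and eIF2B subunit, with replicate 3 below the others. Atf4, the transcription factor translated when eIF2 is phosphorylated, was at 48.1, 33.3 and 34.2 TPM. The kinases Mknk2 (41.6, 32.0 and 29.5 TPM) and Mknk1 (36.0, 21.4 and 24.3 TPM), which phosphorylate eIF4E, were above the band. In their group of 10, which includes genes of the mTOR pathway, Rheb (1.47) was also above the band and 7 were not called. Mtor (-0.76) and Rps6kb1 (-0.93) were the lowest of that group. Pabpc1, the poly(A)-binding protein that contacts eIF4G, was at 241, 180 and 185 TPM and Paip2, its inhibitor, at 26.7, 17.6 and 17.3 TPM. The termination factors Etf1 (50.3, 33.6 and 35.3 TPM) and Gspt1 (21.04, 13.3 and 16.0 TPM) were above the band. The hypusine enzymes Dhps (10.2, 7.44 and 9.02 TPM) and Dohh (8.91, 6.20 and 6.91 TPM) were not called, so the enzymes of eIF5A's modification stood near the median gene while Eif5a itself stood far above it. Of the eIF2 kinases, Eif2ak3 (-1.65) and Eif2ak4 (-1.40) were below the band and Eif2ak2 (1.11) and Eif2ak1 (-0.15) were not called.

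The spread between libraries was small. It is given as the biological coefficient of variation (BCV) of edgeR, the relative SD between libraries beyond counting noise, from rounded expected counts. edgeR draws each gene's value toward a trend over all genes, so it is not the spread of the 3 libraries alone. The median BCV of 59 factor genes was 0.0974, beside 0.113 over 11557 protein-coding genes and 0.122 over all 13026 genes that passed the count filter. The list is also more abundant than those genes, and the part of abundance in this was not tested. Among genes of at least 10 TPM the lowest were the eIF3 subunits Eif3d (0.0811) and Eif3l (0.0826) and the eIF2 subunit Eif2s1 (0.0812). Eif3d was at 24.3, 16.0 and 19.7 TPM and Eif3l at 24.9, 15.4 and 17.8 TPM. The highest were Eef1a1 (0.129), Eef2 (0.12) and Eif3f (0.118; 45.9, 29.9 and 27.7 TPM). Below 10 TPM values went up to 0.214, for Eif4ebp3. The lowest value over all 13026 genes was 0.0805, close to those of Eif3d, Eif2s1 and Eif3l.

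The messages for translation factors are known for 5′ terminal oligopyrimidine tracts, runs that begin with C at the cap and tie translation to mTOR. A tract was searched for on the gene's own strand in the RefSeq promoter table (GRCm38.p6), as a C followed by at least 4 bases that are C or T and beginning within 5 bases of the annotated first base. By symbol 46 of the 62 genes were matched, and 10 of them (21.7%) held such a tract, beside 21.5% of the 17492 genes in the table. With at least 7 bases after the C the numbers were 6 (13.0%) and 5.16%. These 6 are shown because they met the stricter search, with the matched tract in capitals and 8 bases before it, each a stretch of 26 bases on the gene's strand.
Eef1a1, chr9:78481712-78481737, minus strand: tggctccgCCCTCTTCCCgagggtgg
Eif2s3x, chrX:94212635-94212660, minus strand: agcattttCCTTTTCTCTCCgagcaa
Eif3f, chr7:108934403-108934428, plus strand: gttctaggCTCTCTCTCTTTCTCggc
Eif3l, chr15:79075210-79075235, plus strand: gcggagttCTTCTTCCgctctctccc
Eif2b2, chr12:85219478-85219503, plus strand: gaagttgaCCTCTCTCggcccggaag
Eif2b5, chr16:20498805-20498830, plus strand: tcctctttCTCTCCCTgcaactacac
From the C onwards the marked stretches ran over 10, 12, 15, 8, 8 and 8 bases in that order. Further pyrimidines stood directly before it in Eif2b5 (13 bases), Eif2s3x (4) and Eif3l (2). From the annotated first base, the C lay at -5 in Eef1a1 and Eif3l, -4 in Eif3f and Eif2b5, and -1 in Eif2s3x. In Eif2b2 it lay at 6. Negative positions are upstream, so those stretches begin outside the annotated transcript. Eef1a1, Eif2s3x, Eif3f and Eif3l were above the band, and Eif2b2 and Eif2b5 were not called. A match is a feature of the annotated sequence, and where transcription started in these cells was not measured.

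The transcript tables divide each gene's TPM among its annotated transcripts, 402 for the 62 genes, of which 214 are annotated as protein coding. The share in the others (nonsense-mediated decay targets, retained introns and processed transcripts) was at least 20% for 10 of the 59 genes, where 16.5% of the 9118 protein-coding genes with a value reached it. The median gene of the list had 0.933% and the median of all genes 1.81%. When the share was taken of expected counts in place of TPM, 4 of the 59 reached 20%, beside 8.28% of all genes. The second tables gave 11, which include Eif5b (50.8, 55.4 and 51.1%, but 4.12, 1.37 and 1.57% in the first) and Eif2s1 (41.5, 37.1 and 35.5%, but 18.1, 8.25 and 13.7%), and not Eef2k.

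Eif4a2 had the highest share. Transcripts not annotated as coding held 66.8, 76.5 and 78.4% of its TPM, and 72.2, 82.0 and 82.7% of its expected counts, and the second tables gave 56.0, 56.7 and 65.1%. The nonsense-mediated decay class alone came to 69.5 ± 7.6% (SD, n = 3), led by Eif4a2-210 at 44.6 ± 4.4% and Eif4a2-204 at 19.0 ± 3.9%. The most used annotated coding transcripts, Eif4a2-224 (10.1%) and Eif4a2-225 (7.73%), end 763 and 2389 bases upstream of the last base of Eif4a2-210. So these assignments depend on how a quantifier shares reads among transcripts that differ at their ends as well as in their exons, whose part was not tested, and reads over exon junctions were not analysed here.

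Eef1b2 came next among those whose counts also passed, with 42.9, 46.4 and 49.1% of TPM and 31.3, 33.0 and 36.4% of counts. Its decay-class transcript Eef1b2-205 held 43.1 ± 3.7% and the coding Eef1b2-209 and Eef1b2-204 held 40.3 ± 3.2% and 13.6 ± 1.3%, with last exons of 111, 199 and 1029 bases. The remaining 2 that passed by counts were Eif2a and Eef1akmt2. Eif2a had 23.0, 65.4 and 43.3% of TPM, a wide spread, with 20.3, 23.5 and 22.7% in the second tables, and Eef1akmt2 had 39.5, 32.5 and 29.0%. Serp1, at 58.1, 39.6 and 39.7 TPM, overlaps Eif2a on the other strand, where the uncertainty over strand applies.

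For the other 6 genes the share by counts was under 20%, and for some of them the TPM stood on very short transcripts. Eif1 had 39.2, 39.6 and 43.9% of TPM but 9.36, 9.48 and 10.7% of counts outside coding transcripts, nearly all in Eif1-202, which is 383 bases long. Eif4a3 had 44.1, 48.2 and 49.6% of TPM and 13.6, 15.7 and 16.0% of counts, through Eif4a3-203 of 466 bases. Eif2b2 had 44.9, 36.6 and 54.3% of TPM, mostly in the 338-base Eif2b2-206, and 11.3, 6.22 and 10.6% of counts. The rest were Eif4ebp1 with 40.6, 21.9 and 7.10% of TPM, Eef1e1 with 31.7, 18.9 and 17.4%, and Eef2k with 25.1, 25.5 and 23.7%. Without replicate 1, Eif4ebp1 and Eef1e1 no longer reached 20%. Eef2k was at 16.5, 7.64 and 4.16% in the second tables.

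**Figure D4:**
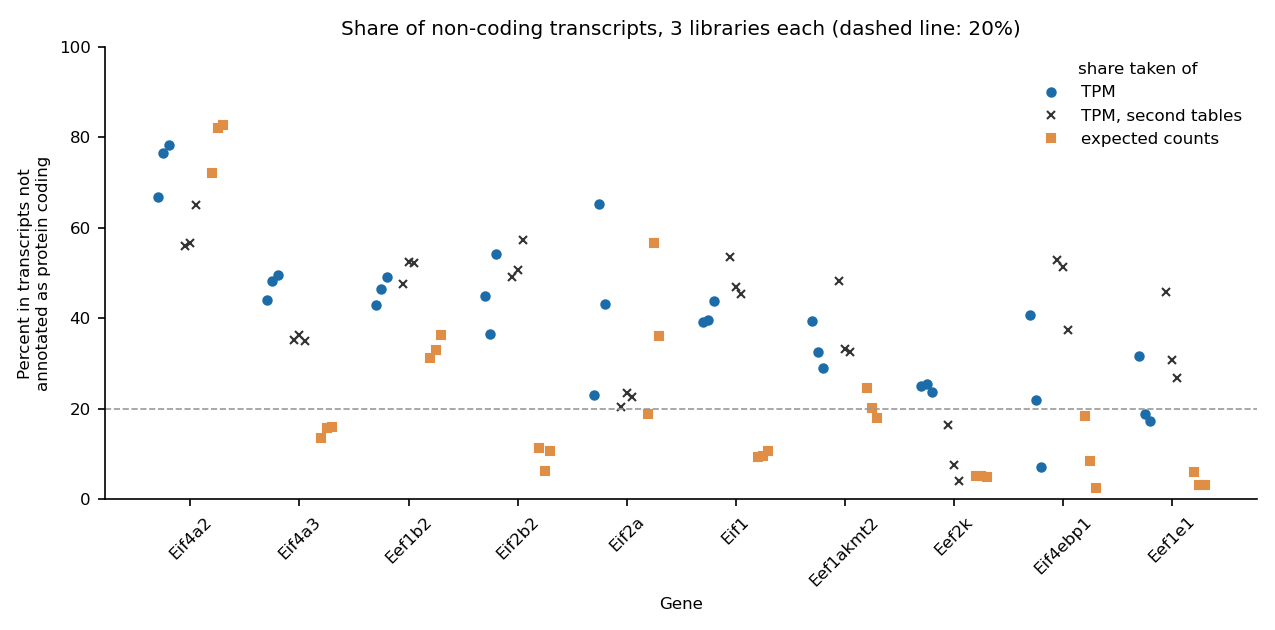
Percent of each gene's abundance in transcripts not annotated as protein coding, for the 10 genes with at least 20% of TPM, with 1 point per library for TPM, TPM of the second tables and expected counts. Eif4a2 lies above 55% on all measures, while Eif1, Eif4a3 and Eif2b2 drop below 20% by counts.

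Alternative exons inside coding sequences were then read from the same tables. An exon was taken as alternative when some transcripts of the gene include it between the same neighbouring exons that others join directly. These transcripts had to hold at least 1 TPM together, with 10 to 90% of that TPM in each form. Transcripts in which the exon has other neighbours, or in which that junction is absent, are in neither form. By this measure 10 of the 59 genes had such an exon, where 13.8% of the 9123 protein-coding genes did. They held 12 exons, of which 3 (25%) had a length that is not a multiple of 3, beside 33.2% of the 1618 exons found in all genes.

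The Eif4a2 exon is 1 of these 3. It is 140 bases long and codes for the nucleotide-binding motif of the helicase, so transcripts that skip it lose that motif and shift frame. Its inclusion was 50.8, 46.7 and 43.96%, and 61.3, 60.4 and 55.7% in the second tables, so both forms were present in each library. The leading transcript of each form, Eif4a2-204 with the exon and Eif4a2-210 without it, is annotated as a nonsense-mediated decay target. Inclusion is therefore not the share of message annotated as coding. The exon is shown whole (mm10), with the codons for the GTGKT part of that motif, known as Walker A, in capitals.
Eif4a2 exon, chr16:23109120-23109259, plus strand: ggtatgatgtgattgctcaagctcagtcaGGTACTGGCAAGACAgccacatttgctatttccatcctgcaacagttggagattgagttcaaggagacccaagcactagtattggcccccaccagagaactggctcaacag

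Of the 9 exons whose length is a multiple of 3, those of Eif4h, Eif4g2 and Eef1d are shown. In these examples the form that skips the exon was the larger among the transcripts compared. They were chosen after their values were seen. Each exon (mm10) is in capitals between 10 bases of its neighbours in the spliced transcript.
Eif4h exon, chr5:134624441-134624500, minus strand: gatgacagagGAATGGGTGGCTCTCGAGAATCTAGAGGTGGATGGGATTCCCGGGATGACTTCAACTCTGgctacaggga
Eif4g2 exon, chr7:111076280-111076393, minus strand: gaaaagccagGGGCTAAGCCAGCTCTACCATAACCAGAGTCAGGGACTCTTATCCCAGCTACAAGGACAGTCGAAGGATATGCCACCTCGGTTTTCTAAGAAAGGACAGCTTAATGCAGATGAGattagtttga
Eef1d exon of 57 bases, chr15:75897226-75897282, minus strand: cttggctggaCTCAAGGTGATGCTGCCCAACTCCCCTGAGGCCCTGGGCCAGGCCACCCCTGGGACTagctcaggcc
Eef1d exon of 72 bases, chr15:75900691-75900762, minus strand: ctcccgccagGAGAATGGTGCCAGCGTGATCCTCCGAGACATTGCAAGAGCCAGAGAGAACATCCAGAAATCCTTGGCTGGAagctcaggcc
The 60-base exon of Eif4h was included at 38.5, 33.7 and 41.1%, and at 37.6, 36.4 and 42.9% in the second tables. The 114-base exon of Eif4g2 was included at 16.7, 22.7 and 19.6%, and at 12.4, 15.2 and 14.0% in the second tables. The transcripts compared for Eif4g2 differ by 4182 bases at their 3′ ends, so this value too rests in part on the assignment of reads outside the exon. For Eef1d the 57-base exon stood at 26.2, 28.4 and 30.8% and the 72-base exon at 31.2, 27.9 and 29.0%. These are shares of the transcripts compared, not of the gene. For the 57-base exon those transcripts held 13.4, 7.68 and 9.89 TPM, without the leading Eef1d-207 (54.5% of the gene's TPM). Eef1d-213, which includes the 57-base exon, has the last 10 bases of the 72-base exon before it but is in neither form of the 72-base exon. The share with the 72-base exon may therefore be higher. Among the transcripts compared, the skipping form was the larger for each of these exons in every library. The 123-base exon of Eef1b2 was included at 25.3 ± 2.6% (SD, n = 3) of the TPM of the transcripts compared. By expected counts the including form was the larger in every library, with 3165, 3715 and 2810 counts against 2905, 2590 and 2299. These transcripts differ by 830 bases at their 3′ ends, so the limit given for Eif4g2 applies. The leading Eef1b2-205 (43.1% of the gene's TPM) is in neither form, so the larger form in the whole gene is not given.

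In Eif4e and Eif4g3 inclusion was the larger form among the transcripts compared. The 96-base exon of Eif4e was included at 64.1, 62.6 and 62.7% of TPM. The skipping form was Eif4e-205 alone, a transcript of 729 bases. By expected counts it was much the smaller, with 438.1, 473.6 and 447.5 counts against 3101, 3739 and 3660 for the including form. Eif4g3 had exons of 129 and 21 bases at 75.3 ± 3.5% and 87.9 ± 1.2% (SD, n = 3). The leading transcripts compared for the 21-base exon differ by 79645 bases at their 3′ ends, and the same limit applies to it. That comparison covered 4.95, 2.23 and 2.86 TPM of the gene's 21.1, 12.9 and 16.4 TPM. The gene's leading transcript Eif4g3-215 (40.8% of TPM) is in neither form, so the larger form in the whole gene is not given by it. Eif4enif1 had a 72-base exon at 60.9, 49.1 and 46.3%, so that the larger form differed between libraries. The other exons of a length that is not a multiple of 3 were in Eif2a (119 bases, 81.0, 55.2 and 66.5%, the widest spread) and Eef1akmt2 (217 bases, 89.1 ± 1.3%).

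**Figure D5:**
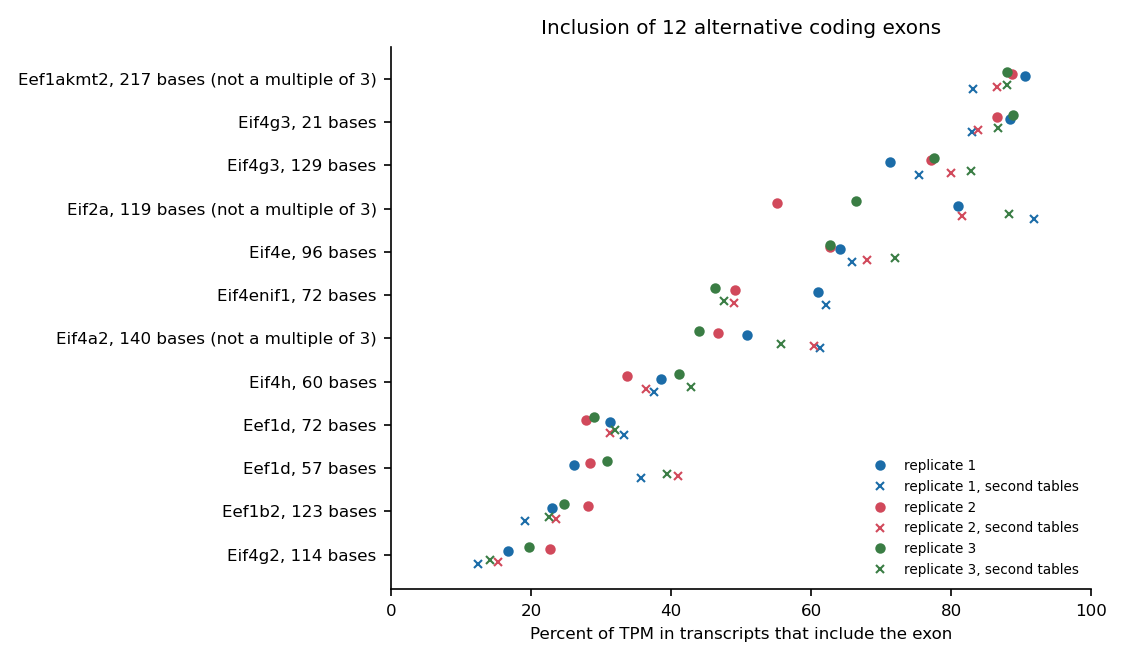
Inclusion of 12 alternative coding exons, as a percent of the TPM of the transcripts compared for each exon. Filled points are the first tables and crosses the second, coloured by library. The 140-base exon of Eif4a2 lies between 43.96 and 61.3% and the 114-base exon of Eif4g2 between 12.4 and 22.7%.

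Many factor genes have processed copies elsewhere in the genome that could take some of their reads. Sequence matches of at least 95% identity over 300 bases were found for 12 copies of Eif1, 8 of Eef1a1, 4 of Eef1g and 3 of Eif4a1, among others. The counts given to these copies came to 0.109, 0.519, 1.11 and 1.66% of the counts of their source genes. The copy of Eif2s3x, Gm2223, held 2.17%. Apart from the pair of eIF3j genes, no copy share was above that of Eif2s3x.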

How the data were processed

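Ribosomal RNA-depleted total RNA of the 3 libraries had been quantified by the submitters. Per the file headers, the deposited gene tables give expected counts and TPM, and the transcript tables how a gene's TPM divides among its transcripts, in percent; the column names are those of RSEM. The deposited second transcript tables give estimated counts and TPM, under the column names of kallisto. Build mm10 and GENCODE M21 stand in the deposited description files, while tool versions, settings and any use of strand are not given in sources used here. TPM divides by effective length, so transcripts near the fragment size (250-400 bases per the labels) weigh more in TPM than in counts. Rows that name no gene (0.260, 0.093 and 0.058% of counts) were left out.

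Each gene's log2(TPM + 0.1), less the median of protein-coding genes with a mean of at least 1 TPM in that library, entered limma 3.58.1 (R 4.3.3) with only an intercept, using treat with a band of 1, a trended prior, and Benjamini-Hochberg adjustment over 9123 genes at 0.05. Differences on this scale are understated for low genes. The SEs given with levels are limma's moderated SEs, with each variance drawn toward a trend over all genes tested. Pairs were compared within libraries with an exact sign-flip permutation test. BCV came from edgeR 4.0.16 (tagwise, TMM, filterByExpr, expected counts rounded). Python 3.11.15, pandas 2.3.3 and blastn 2.17.0 did the rest. The limma step was tested on simulated data. Libraries differed by far more than counting noise (chi-square per degree of freedom 61.9 to 92.1), so no library was counted as a second deposit of another; whether they came from separate RNA preparations this does not show.

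Per-library values are given for the 2 highest genes of each role, members of pairs, genes below the band, the extremes of BCV and genes with a 20% non-coding share, and for a few others where a group is described. Of the 35 genes acting on the factors, the 2 highest of each of 5 groups are named. The eIF2 kinases, 2 mTOR pathway kinases and Rheb were added after their values were seen. The genes and lists were chosen with earlier results of these data known, and alternative exons were added after seeing the data. Alternatives were the second tables, a pseudocount of 1, no filter on low values, TMM scaling, DESeq2 1.42.0 size factors for BCV, another reference gene, other thresholds, and leaving out each library.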

Additional observations from a re-analysis of the deposited data

Results flagged for a closer look

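Eif4a-ps4, annotated as a processed pseudogene of the eIF4A helicase on chromosome 1 (60703932 to 60705149), is outside the protein-coding genes compared above but held a mean of 605.7 expected counts, above the 3 that a count of 0 allows. Its TPM was 4.56, 4.88 and 5.21 in the libraries in order of replicate, on 416, 731 and 670 counts. It shares at least 95% identity with Eif4a1, so how reads were divided between them is uncertain, and the part of that division in its level was not tested. Of the other 9 pseudogenes named after the family, none held more than 7 counts in a library.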

How the results depend on the processing

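The number of genes above the band was 35 with TMM scaling or no filter, 32 with a pseudocount of 1, 28 in the second tables, 40 with the median over all genes with counts as reference, and 32 to 34 without 1 library. Below the band the number was 8 with TMM scaling, 9 with no filter, 7 in the second tables, 7 to 8 without 1 library, 5 with a pseudocount of 1 and 1 with the other reference, which raises all levels by 0.905. That shift also turned the sign of Eef1akmt1 (0.69), Eef2k (0.83), Eif2b5 (0.76), Eif3j1 (0.24), Eif4e3 (0.71) and Eif4ebp1 (0.59), none of them called. Of 20 pairs, 18 kept their sign in every library of the second tables; Eif4e minus Eif4e2 became 0.095 and Eif3j1 minus Eif3j2 became -1.096, and the cause was not tested. With coding transcripts alone 19 kept it, all but Eef1b2 minus Eef1g (mean 0.012). The median BCV was 0.0975 with DESeq2 size factors, 0.0988 with no filter and 0.0950 to 0.107 without 1 library. Genes with a non-coding share came to 16 at a threshold of 10%, 4 by expected counts, 11 in the second tables and 8 to 10 without 1 library. A pyrimidine tract at the first base itself was found in 2 genes (4.35% beside 2.67% of all), one with at least 7 bases after the C in 6, and one anywhere in the first 50 bases in 11 (23.9% beside 15.5%). The number with an alternative exon stayed at 10 in the second tables, at 5% and without any library, and was 14 with exons outside coding sequence. No paired analysis was possible because the series has 1 group. At most 165 counts stood behind Eif4ebp3 in a library, and 3 libraries limit every test.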
